A study of Mus musculus with 8 samples.

Results

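The genes described here build the mitotic spindle, attach chromosomes to it and divide the cell. They were taken as a list of 49 mouse genes, and their members were the probe sets that the array annotation maps to those symbols. The list was drawn up by function and not from measured values, although earlier results of these data were known. Of the 49 genes, 46 had a probe set and 42 could be tested, out of 7825 genes tested in all. Espl1, Cdca8 and Fbxo5 had no probe set under a single symbol, and Bub1b, Cdc25c, Kif4 and Anln were too dim to be tested.

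RNA was measured on Affymetrix mouse arrays in cells sorted by flow cytometry from lymph nodes of B10.BR mice, an inbred strain. The groups were naive mice (3 arrays), mice 7 days after immunization (3 arrays) and mice at 28 days (2 arrays). What was injected, which cells the sort kept and how old the mice were is not given in the labels. Nor is it said that replicates came from different mice, so the p-values may reflect technical spread. No genetic change or other treatment is named for any group. Each value is a log2 ratio: 0 marks the median of that probe set across the 8 arrays or, for dim probe sets, a shared floor above it. Levels of different genes therefore cannot be compared.

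In mitosis, condensed chromosomes are captured by spindle microtubules at the kinetochore, a protein assembly on the centromere. A checkpoint holds the cell until every chromosome is attached, after which the anaphase-promoting complex, a ubiquitin ligase, marks securin and cyclins for destruction and the sister chromatids part. Most of these genes are transcribed mainly in the G2 and M phases, so resting lymphocytes hold little of their RNA and dividing ones, such as cells expanding after immunization, hold more.

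The arrays did not differ by group alone. The median log2 ratio of 18 hybridisation spike-in probe sets, bacterial transcripts added to the samples, was -1.16 on naive replicate 1 and between -1.70 and -1.03 on the day 7 arrays. It lay between 0.64 and 1.41 on naive replicates 2 and 3 and both day 28 arrays. Ratios carry no level, so the presence of T cell markers could not be checked. Of 10 T cell markers tested, none passed in any comparison by limma, with 0 higher and 2 lower at an unadjusted p under 0.05 at day 7 against naive and 0 at day 28. The B cell markers had a median over 10 genes of -0.86 to -0.19 on the naive arrays, -0.34 to 0.08 at day 7, and 4.43 and 3.56 at day 28, where 8 of 10 rose against naive. Germinal centre B cell and plasma cell markers (6 genes) ran from -0.85 to -0.28, from 0.16 to 0.32, and were -0.13 and -0.23. Monocyte and macrophage markers (5 genes) ran from -0.61 to -0.16 and from -0.25 to 0.42, and were 1.09 and 1.01 at day 28. Alas2, an enzyme of haem synthesis and the 1 erythroid marker tested, was at 4.24 on naive replicate 3 and between -1.04 and 1.14 elsewhere. The part of other cell types in the results was not tested.

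The first comparison, day 7 against naive, asks which mitotic genes differed early in the response. At day 7, 9 of the 42 tested genes rose and none fell: Nusap1, Cdca3, Ube2c, Cenpa, Mki67, Hmmr, Plk1, Cdc20 and Smc2, by 3.76-fold to 20.0-fold. Over all genes tested, 1.05% were called higher and 0.115% lower. In sorted cells measured in bulk, a larger share of dividing cells and more RNA per cell cannot be told apart. The median log2 difference was 1.31 over the 42 genes, against 0.08 over all genes tested, and 0.70 over the 46 genes with a probe set when no filter was applied. In 38 of 42 genes the difference was positive, against 54.7% of all genes. In 24 the lowest day 7 array lay above the highest naive array and in 0 the reverse held, against 13.2% and 8.55% of all genes. The filter asked for a ratio of at least 1 on 2 arrays, and 6 of the 42 genes met it through day 7 arrays only: Bub1, Cdca3, Cdca5, Incenp, Nuf2 and Ttk. A difference was built into those, and 1 of them, Cdca3, was called. Among the other 36 genes 8 were called, and the median difference was 1.31. Of these 36, Nusap1, Hmmr, Kif11, Cenpf, Kif20a and Tacc3 had a median below the scaling value. They reached a ratio of 1 on only 1 array outside day 7, so they too were tested only through a day 7 array. Nusap1 and Hmmr were called. Among the 30 genes whose probe set had its median at the scaling value, 6 were called and the median difference was 1.16.

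Seen array by array, the median over the 42 genes came to -0.14, -0.34 and -0.32 for naive cells, 0.74, 1.14 and 1.70 for day 7, and -0.19 and -0.35 at day 28. The 3 day 7 arrays were thus above the other 5, and for 36 of the 42 genes the highest of the 8 arrays was a day 7 array. No day 7 array led throughout: replicate 1 was the highest of the 3 for 10 genes, replicate 2 for 18 and replicate 3 for 14.

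**Figure D1:**
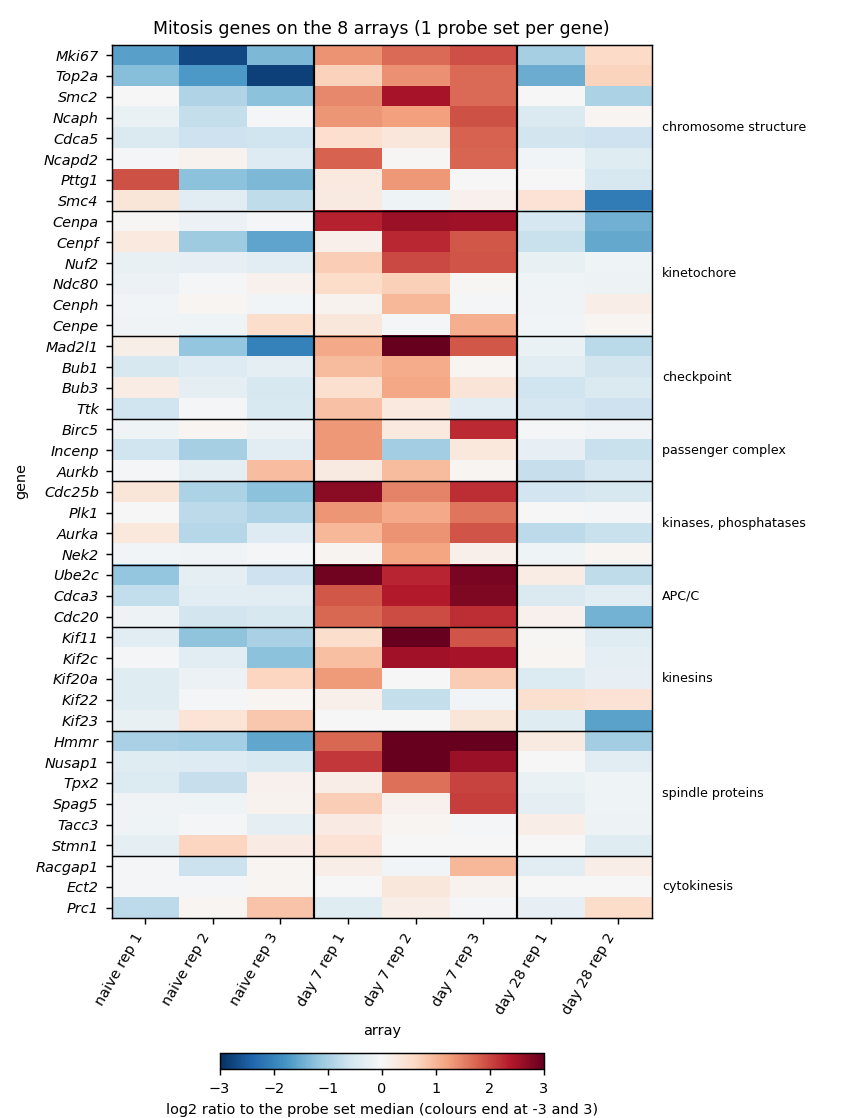
Log2 ratio of each tested mitosis gene (rows, 1 probe set per gene, grouped by role, highest day 7 difference first within a role) on the 8 arrays (columns); red is above and blue below the probe set's scaling value. The red block in the day 7 columns covers most rows of the list, but not those of the cytokinesis genes, where the median was -0.01, 0.20 and 0.10 on the day 7 arrays.

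The count of calls depended on single arrays. Leaving out naive replicate 1 gave 19 of 42 (10.4% of all genes called higher), and leaving out day 7 replicate 2 gave 3 (0.562%). In limma 0 were called when naive replicate 2, naive replicate 3 or day 7 replicate 3 was dropped, although 23, 21 and 23 genes then still had an unadjusted p under 0.05 and a higher value. In those fits 0.102%, 0.192% and 0.141% of all genes were called higher, while 8.26%, 7.30% and 8.10% had a higher value with an unadjusted p under 0.05. Without day 7 replicate 1 the count was 8 (0.716% of all genes), and leaving out either day 28 array gave 6 (0.46%). Cdca3, Ube2c and Nusap1 were called in 5 of these 8 fits, Cenpa in 4, Mki67 and Cdc20 in 3, Hmmr in 2, and Smc2 and Plk1 in 1. With the spike-in level as a term in the fit, 0 were called, with 18 higher and 1 lower at an unadjusted p under 0.05, against 3.82% and 5.05% of all genes. Inside the low spike-in arrays alone, day 7 minus naive replicate 1 had a median of 1.16 over the 42 genes, and 40 of them were positive, against a median of 0.00 over all genes. The part of the spike-in split in the calls was not tested.

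Of the 8 tested genes that mark dividing cells or shape chromosomes, 2 rose, Mki67 and Smc2, and the median difference was 1.61. Mki67 encodes Ki-67, a protein that coats mitotic chromosomes and is used as a proliferation marker. Its log2 ratio was -1.63, -2.71 and -1.34 in naive replicates 1 to 3, 1.34, 1.69 and 1.94 at day 7, and -0.99 and 0.58 at day 28, the order used throughout. The day 7 arrays lay above all others, and the day 28 arrays differed from each other by more than the day 7 arrays did. Day 7 was 11.7-fold above naive (log2 difference 3.55 with an SE of 0.52, 3 arrays in each group, adjusted p = 0.0285 by limma). Top2a encodes topoisomerase II alpha, which untangles sister DNA. Top2a stood at -1.27, -1.73 and -2.79 in naive cells, 0.69, 1.37 and 1.70 at day 7, and -1.49 and 0.66 at day 28, the same order of groups as Mki67. Its difference of 3.18 ± 0.64 did not pass (adjusted p = 0.0724).

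Condensin, the ring complex that compacts chromosomes, was represented by Smc2, Smc4, Ncapd2 and Ncaph. Smc2 read 0.02, -0.91 and -1.22 in naive cells, 1.45, 2.47 and 1.71 at day 7, and -0.02 and -0.95 at day 28, and rose 5.98-fold (2.58 ± 0.46, adjusted p = 0.0499). Its partner Smc4 read 0.36, -0.34 and -0.76, then 0.26, -0.14 and 0.12, then 0.44 and -2.10. The groups overlapped for Smc4, with a difference of 0.33 ± 0.63 (adjusted p = 0.817), and its other tested probe sets had 0.62 and 0.69. Ncaph was at -0.21, -0.72 and -0.05, then 1.32, 1.23 and 1.90, then -0.43 and 0.05, and narrowly missed the threshold (1.81 ± 0.33, adjusted p = 0.0521). A further Ncaph probe set passed (3.77 ± 0.43, adjusted p = 0.0107), but it met the filter through day 7 arrays only. For Ncapd2 the difference was 1.28 ± 0.49 (adjusted p = 0.274).

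Of the genes that hold and release sister chromatids, Cdca5, which encodes sororin, a protector of cohesion, read -0.43, -0.62 and -0.59, then 0.50, 0.34 and 1.77, then -0.56 and -0.62. The groups did not overlap, but the difference of 1.42 ± 0.40 did not pass (adjusted p = 0.166). The other Cdca5 probe set rose by 4.20 ± 0.45 (adjusted p = 0.00873), from -1.10, -1.06 and -0.44 to 2.40, 3.74 and 3.87. Pttg1, which encodes securin, was at 1.90 on naive replicate 1 and at -1.23 and -1.34 on the other naive arrays, and its day 7 values of 0.30, 1.30 and -0.02 lay between these. Its difference was 0.75 ± 0.86 (adjusted p = 0.681), and -1.38 against naive replicate 1 alone. The other tested Pttg1 probe sets had 2.99 ± 1.39 (adjusted p = 0.353) and 0.60 ± 0.34 (adjusted p = 0.427).

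At the kinetochore, Cenpa, the histone H3 variant that defines the centromere, had the smallest day 7 SD of the 9 called genes. It read 0.04, -0.17 and -0.05 in naive cells, 2.32, 2.58 and 2.54 at day 7, and -0.51 and -1.43 at day 28. The SD within the day 7 group was 0.14 and within the naive group 0.11, and the rise was 5.82-fold (2.54 ± 0.31, adjusted p = 0.0138). Of the other 5 kinetochore genes none passed in limma. Of the 6 in all, 3 had an unadjusted p under 0.05 and a higher value, against 11.8% of all genes. Cenpf had 2.21 ± 0.68 and Nuf2, a subunit of the microtubule-binding Ndc80 complex, 1.79 ± 0.37 (adjusted p = 0.189 and 0.0802). Ndc80 itself had 0.46 ± 0.28 and Cenph 0.39 ± 0.34. Cenpe, a kinesin of the kinetochore, was lowest with 0.35 ± 0.37 (adjusted p = 0.665). It read -0.10, -0.13 and 0.53, then 0.34, -0.07 and 1.09, then -0.08 and 0.07, and the groups overlapped.

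Checkpoint genes had a median difference of 0.97 over 4 tested genes, of which 0 passed in limma. At an unadjusted p under 0.05, 3 of them were higher, against 11.8% of all genes. Mad2l1, the checkpoint protein that inhibits Cdc20, read 0.17, -1.17 and -2.02 in naive cells, 1.13, 3.10 and 1.86 at day 7, and -0.19 and -0.80 at day 28. No day 7 value fell below a naive one, but the naive arrays themselves spread over more than the step to day 7 replicate 1, and the difference of 3.03 ± 0.67 did not pass (adjusted p = 0.0941). The kinase gene Bub1 had 1.08 ± 0.34, and Bub3, its binding partner, 0.85 ± 0.33. Bub3 read 0.23, -0.28 and -0.49, then 0.47, 1.15 and 0.39, then -0.60 and -0.43, with each day 7 array above the naive ones. It had 2 further tested probe sets, at 1.19 and -0.37, the last opposite in sign. The checkpoint kinase Ttk was lowest, at -0.59, -0.06 and -0.46, then 0.89, 0.29 and -0.32, then -0.50 and -0.61 (0.66 ± 0.36, adjusted p = 0.416). Bub1b, not tested, had a difference of 0.23.

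The chromosomal passenger complex corrects faulty attachments and later sits at the division site. None of its 3 tested genes passed in limma, and 1 was higher at an unadjusted p under 0.05, against 11.8% of all genes. Birc5, which encodes survivin, read -0.12, 0.07 and -0.15, then 1.30, 0.29 and 2.23, then -0.07 and -0.09. Day 7 replicate 2 lay much nearer to the naive arrays than the other day 7 arrays did, and the difference was 1.34 ± 0.47 (adjusted p = 0.237). Aurkb, the kinase of the complex, had -0.07, -0.26 and 0.92 in naive cells, 0.26, 0.95 and 0.06 at day 7, and -0.69 and -0.50 at day 28, an overlap of naive and day 7 with a difference of 0.23 ± 0.40 (adjusted p = 0.798). Another Aurkb probe set had 1.56 (adjusted p = 0.118). Incenp, the scaffold, had 0.83 ± 0.57, with 3.62 ± 0.82 by another probe set (adjusted p = 0.103).

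Among mitotic kinases and phosphatases, Plk1, a kinase needed from spindle assembly to cytokinesis, rose 3.76-fold (1.91 ± 0.33, adjusted p = 0.0461). It read 0.02, -0.79 and -0.92 in naive cells, 1.32, 1.13 and 1.60 at day 7, and -0.02 and -0.07 at day 28, so naive replicate 1 sat with the day 28 arrays. Cdc25b, a phosphatase that activates Cdk1, had 0.36, -0.94 and -1.22, then 2.70, 1.49 and 2.22, then -0.58 and -0.48, and narrowly missed (2.73 ± 0.49, adjusted p = 0.0505). Aurka, the spindle pole kinase, had 1.73 ± 0.39 (adjusted p = 0.0977). Nek2, a centrosome kinase, was at -0.08, -0.11 and -0.07, then 0.08, 1.18 and 0.15, then -0.13 and 0.07. Its naive and day 7 groups did not overlap, yet 1 array carried the difference of 0.56 ± 0.35 (adjusted p = 0.463). Cdc25c, not tested, had -0.02.

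The genes grouped as regulators of the anaphase-promoting complex were the group in which each tested gene was called, 3 of 3. Their median difference was 2.82. None of the 3 encodes a subunit of the complex. Subunit genes among the other mitosis genes described below, Anapc1, Anapc5, Cdc16, Cdc23 and Cdc26, were not called. Their differences were -0.25, -1.61, 0.22, 0.11 and 0.68. Ube2c, the ubiquitin-conjugating enzyme of the complex, read -1.17, -0.28 and -0.63 in naive cells, 2.89, 2.29 and 2.85 at day 7, and 0.23 and -0.77 at day 28, and rose 10.3-fold (3.37 ± 0.39, adjusted p = 0.0109). Cdca3, an adaptor that helps trigger mitotic entry, read -0.73, -0.35 and -0.32, then 1.86, 2.39 and 2.81, then -0.43 and -0.34, and rose 7.05-fold (2.82 ± 0.32, adjusted p = 0.0106). Cdc20, the activator of the complex, read -0.15, -0.54 and -0.47, then 1.72, 1.95 and 2.21, then 0.13 and -1.41, and rose 5.08-fold (2.34 ± 0.42, adjusted p = 0.0499). For these genes the day 7 arrays stood clear of both other groups. The Cdca3 probe set reached a ratio of 1 on day 7 arrays only, so it was tested because it was high there, and the count of 3 and the median of 2.82 include it. Without it, the called genes of the group were Ube2c and Cdc20. Of 2 further Cdc20 probe sets, 2.97 (adjusted p = 0.0521) and 1.07 (adjusted p = 0.291) did not pass.

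Kinesin motors were divided. Kif11, the motor that pushes spindle poles apart, read -0.33, -1.21 and -0.97, then 0.52, 3.06 and 1.88, then 0.03 and -0.37. Its day 7 arrays spanned a wide range above the naive ones, and the difference of 2.66 ± 0.61 did not pass (adjusted p = 0.106). Its 2 other tested probe sets had 1.11 and -0.16. Kif2c, which shortens microtubules at the kinetochore, had 2.50 ± 0.52 (adjusted p = 0.0802) and Kif20a 0.64 ± 0.42. Kif22, a chromosome arm motor, read -0.37, -0.05 and 0.05 in naive cells, 0.16, -0.71 and -0.09 at day 7, and 0.48 and 0.44 at day 28 (-0.09 ± 0.31, adjusted p = 0.9), with 0.87 and 0.25 by its other probe sets. Kif23, a motor of the midbody, was at -0.23, 0.41 and 0.80, then -0.01, 0.01 and 0.36, then -0.36 and -1.60, with the lowest day 7 difference of the 42 genes (-0.21 ± 0.42, adjusted p = 0.824). Of the 5 tested kinesins 0 passed in limma. At an unadjusted p under 0.05, 2 were higher and 0 lower, against 11.8% and 3.3% of all genes.

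Spindle proteins held the largest rise. Hmmr, a hyaluronan receptor that also binds spindle microtubules, read -0.97, -1.01 and -1.56 in naive cells, 1.72, 4.67 and 3.04 at day 7, and 0.27 and -1.04 at day 28. The rise was 20.0-fold with a wide error (4.32 ± 0.72, adjusted p = 0.0431), and another tested Hmmr probe set had 1.78 (adjusted p = 0.223). Nusap1, which bundles microtubules near chromosomes, read -0.36, -0.39 and -0.45, then 2.11, 3.28 and 2.60, then 0.00 and -0.33, and had the smallest adjusted p among the probe sets used (8.35-fold, 3.06 ± 0.35, adjusted p = 0.0102). The probe sets used for Hmmr and Nusap1 each reached a ratio of 1 on only 1 array outside day 7. Each was thus tested only through a day 7 array. Tpx2, which activates Aurka, had 1.61 ± 0.50, Spag5 1.03 ± 0.48 and Tacc3 0.24 ± 0.26. Further tested Tacc3 probe sets had 2.05 (adjusted p = 0.087) and 1.03 (adjusted p = 0.229), with each day 7 array above the naive ones. The last of these met the filter through day 7 arrays only. Stmn1, which encodes stathmin, a protein that destabilises microtubules, had -0.29, 0.64 and 0.24, then 0.44, 0.01 and -0.01, then -0.01 and -0.37 (-0.05 ± 0.33, adjusted p = 0.951) by the probe set used. By its other probe set it read 0.34, -1.30 and -2.49, then 2.33 and 2.93 in day 7 replicates 1 and 2 and slightly more in replicate 3, then -1.94 and -0.44, a difference of 3.90 ± 0.72 (adjusted p = 0.0565).

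Cytokinesis genes were the group with the smallest median, 0.15 over 3 tested genes, of which 0 passed in limma. At an unadjusted p under 0.05, 0 were higher and 0 lower, against 11.8% and 3.3% of all genes. By the probe sets used, Prc1, which bundles the midzone of the spindle, read -0.78, 0.05 and 0.85, then -0.36, 0.20 and -0.05, then -0.25 and 0.55 (-0.11 ± 0.46, adjusted p = 0.922). Racgap1, a regulator of the contractile ring, read -0.07, -0.64 and 0.06, then 0.21, -0.08 and 0.99, then -0.35 and 0.19 (0.59 ± 0.38, adjusted p = 0.475). Another probe set told differently for both genes. Prc1 rose by 2.89 ± 0.45 (adjusted p = 0.0347), from 0.06, -0.24 and -1.11 to 1.92, 2.89 and 2.56. Racgap1 had 1.77 ± 0.30 (adjusted p = 0.0437), from -0.37, -0.67 and -0.92 to 0.71, 1.23 and 1.41, but this probe set was tested only because its day 7 arrays reached a ratio of 1. Ect2, the exchange factor at the division site, had a single probe set and a difference of 0.15 ± 0.25, and Anln, not tested, had 0.59.

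**Figure D2:**
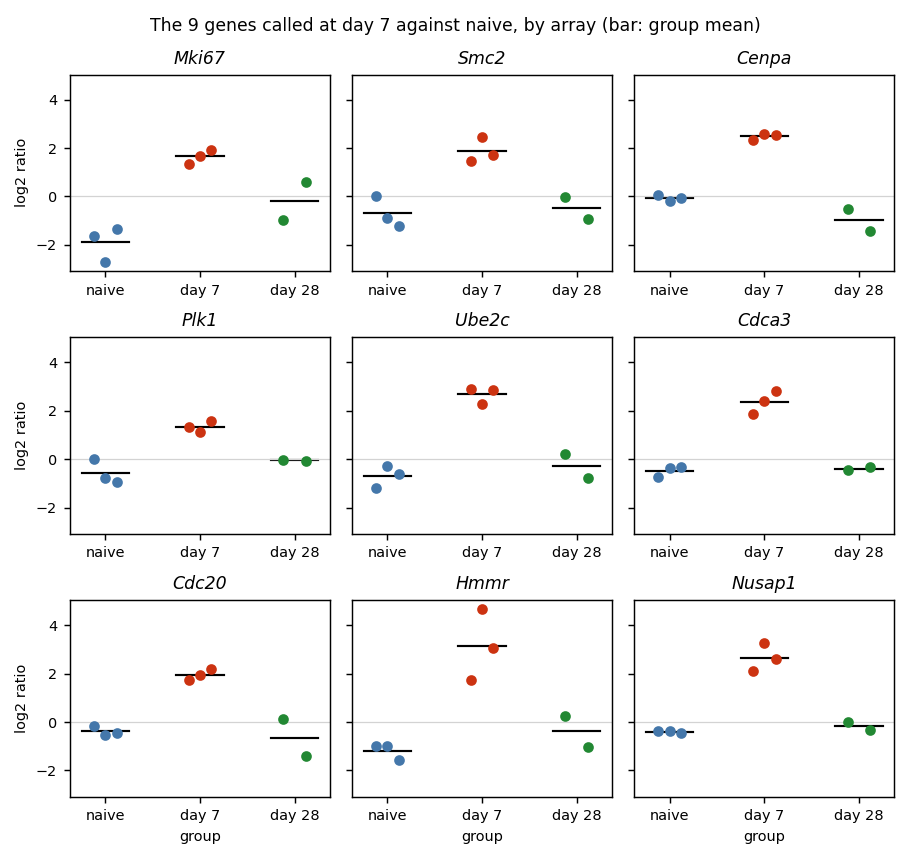
Log2 ratio (y axis) on each array (points) by group (x axis) for the 9 genes called at day 7 against naive; the bar is the group mean. In each panel the 3 day 7 points lie above the naive and day 28 points, with the widest day 7 spread in Hmmr (1.72 to 4.67).

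Probe sets of a gene thus disagreed often. Of the 42 genes, 16 had more than 1 tested probe set. In 5 of these the day 7 difference changed sign between probe sets, and in 6 some but not all probe sets passed. The probe set used for each gene was set by its name among those that passed the filter, and the filter rests on values. With no filter the name rule picked another probe set for 5 genes, and the day 7 difference went from 3.18 to 0.17 for Top2a, from 2.82 to 0.06 for Cdca3, from 2.50 to 0.19 for Kif2c, from 1.03 to -0.19 for Spag5 and from -0.21 to -0.30 for Kif23. Counted over 65 tested probe sets, 13 were called higher and 0 lower (1.06% and 0.107% of all probe sets), and 3 of the 13, of Cdca3, Ncaph and Racgap1, met the filter through day 7 arrays only. In all, 13 of 42 genes had a probe set called higher and 0 one called lower, against 1.39% and 0.128% of all genes. With the mean over the probe sets of a gene, 13 genes were called higher, against 1.57% of all genes, and the median was 1.53.

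**Figure D3:**
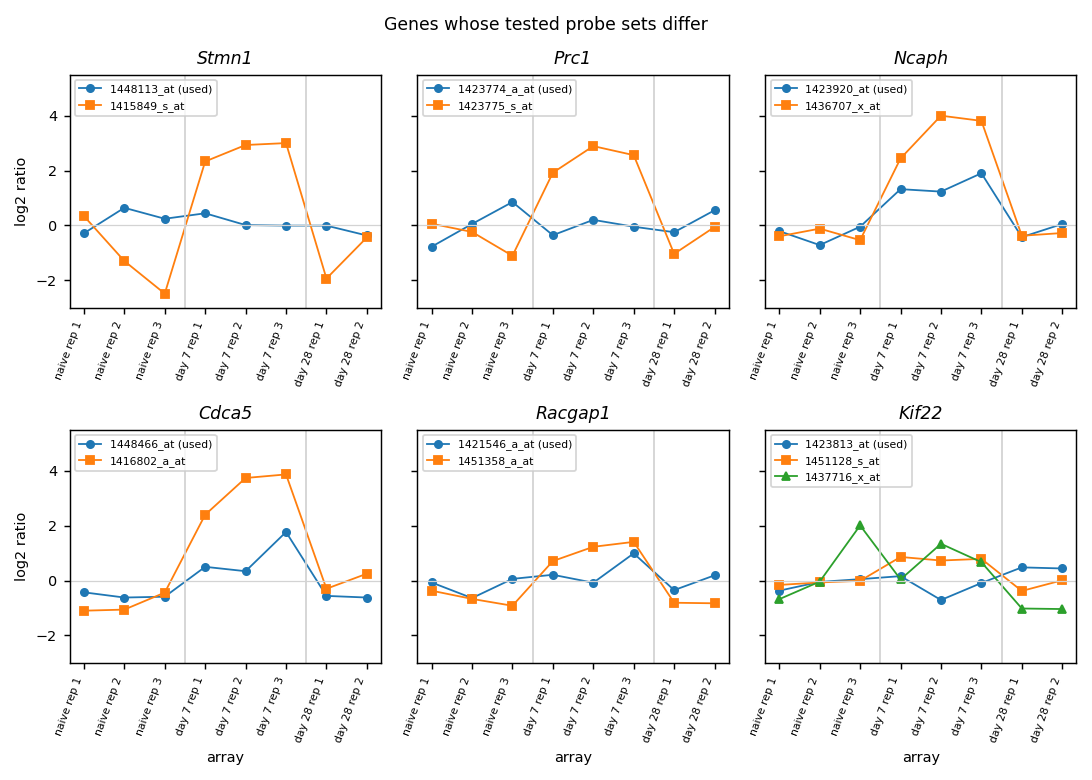
Log2 ratio (y axis) on the 8 arrays (x axis) for each tested probe set (lines) of 6 genes with more than 1; "used" marks the one that stood for the gene. For Stmn1 and Prc1 the probe set used is flat (-0.05 and -0.11, day 7 minus naive) and the other climbs at day 7 (3.90 and 2.89).

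Promoters were set beside these values because genes of this class share promoter elements. In the textbook account, many genes of the G2 and M phases carry a cell cycle homology region, often spelled TTTGAA, through which MuvB complexes repress them in resting cells. They also carry boxes spelled CCAAT that NF-Y binds. RefSeq promoter windows (GRCm38.p6, 250 bases before to 50 after a gene's start) were held for 42 of the 49 genes, the others being Aurkb, Cdc25c, Incenp, Kif20a, Smc4, Stmn1 and Tpx2. Searched on both strands, TTTGAA lay in a window of 30 of these 42 genes (71.4%), against 20.2% of all genes in the table and 14.7% of those tested on the arrays that had a window. CCAAT was held by 31 (73.8%), against 41.1% and 43.2%, and by 20 (47.6%) at 2 or more places, against 13.3% and 17.0%. Both sets of letters were found for 26 (61.9%), against 7.97% and 5.98%. The variant TTTAAA, its own complement, was held by 9 (21.4%), against 14.9% and 11.4%. Such matches describe letters and not bound sites.

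Of the called genes with TTTGAA or else TTTAAA in the window, the 4 with the smallest adjusted p are shown because they let these elements be seen, from 200 bases before the start to 30 after it, 5′ to 3′ along the gene. Capitals mark TTTGAA, its variant (TTTAAA) and the box spelled CCAAT on either strand. On the other strand TTTGAA reads as TTCAAA, and the box as ATTGG. In Cdca3 the TTTGAA begins 31 bases into the transcript and is shown apart.
Cdca3 (chr6:124829976-124830205, + strand): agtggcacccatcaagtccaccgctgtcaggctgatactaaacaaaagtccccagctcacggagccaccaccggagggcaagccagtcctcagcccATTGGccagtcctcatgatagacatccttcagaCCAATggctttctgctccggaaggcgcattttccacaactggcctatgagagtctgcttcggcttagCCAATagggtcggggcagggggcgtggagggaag
Cdca3, TTTGAA (chr6:124830197-124830220, + strand): ggagggaagTTTGAAactccgggc
Ube2c (chr2:164769729-164769958, + strand): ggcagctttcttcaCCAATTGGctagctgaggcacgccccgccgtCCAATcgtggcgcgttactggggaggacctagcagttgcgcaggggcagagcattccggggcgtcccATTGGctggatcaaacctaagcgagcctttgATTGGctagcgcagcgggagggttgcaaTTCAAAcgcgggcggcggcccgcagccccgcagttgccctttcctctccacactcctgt
Cenpa (chr5:30666686-30666915, + strand): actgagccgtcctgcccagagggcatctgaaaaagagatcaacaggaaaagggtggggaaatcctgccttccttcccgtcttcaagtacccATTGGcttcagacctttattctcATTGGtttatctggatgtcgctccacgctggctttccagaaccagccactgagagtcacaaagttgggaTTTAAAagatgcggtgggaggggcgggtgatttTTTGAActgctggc
Mki67 (chr7:135716350-135716579, - strand): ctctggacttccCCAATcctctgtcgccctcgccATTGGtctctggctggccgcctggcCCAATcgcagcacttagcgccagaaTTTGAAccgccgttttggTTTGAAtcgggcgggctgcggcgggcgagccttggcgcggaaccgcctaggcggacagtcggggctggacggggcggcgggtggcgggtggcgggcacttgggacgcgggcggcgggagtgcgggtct
In Ube2c the first CCAAT shares bases with the next ATTGG, and the TTCAAA begins 29 bases before the start. Mki67 carries TTTGAA at 116 and 98 bases before the start. Cenpa has TTTAAA 17 bases before and TTTGAA from the base at 17 after it.

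The tested genes with TTTGAA in a window (24 genes) had a median day 7 difference of 1.82 (range -0.21 to 4.32) and 8 of them were called. Those with a window but without these letters (12 genes) had a median of 1.21 (range 0.24 to 3.06), and 1, Nusap1, was called. Over all genes tested, 1.05% were called higher. Some genes on each side met the filter through day 7 arrays only, so a difference was built into them. These were Cdca3, Cdca5 and Ttk with TTTGAA, of which Cdca3 was called, and Bub1 and Nuf2 without it. The ranges overlapped widely, and the difference between these medians was not tested.

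The other genes of the pathway were read from a list of 96 further mitosis genes, of which 58 were tested. At day 7 against naive, 0 of the 58 passed in limma in either direction, with 14 higher and 0 lower at an unadjusted p under 0.05. Of all genes tested, 11.8% were higher and 3.30% lower by that measure. Their median difference was 0.35, and in 17 the day 7 arrays lay above the naive ones without overlap, against 13.2% of all genes. Spc25, a subunit of the Ndc80 complex, had 3.68 ± 0.73 (adjusted p = 0.0688) and Shcbp1, a midbody protein, 2.78 ± 0.63 (adjusted p = 0.0991). Among their 88 tested probe sets 1 passed, a probe set of the condensin gene Ncapg (3.40 ± 0.45, adjusted p = 0.0186), which met the filter through day 7 arrays only. The other Ncapg probe set, the one used, had 0.79 (adjusted p = 0.383). These values were picked out after they were seen.

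The second comparison, day 28 against naive, asks whether mitotic RNA still differed 4 weeks after immunization. In limma 0 of the 42 genes passed. By the probe sets used, 1 was higher (Mki67) and 2 lower (Cenpa and Kif23) at an unadjusted p under 0.05, against 3.21% and 3.04% of all genes. Over all genes, 0.383% were called higher and 0.0128% lower. The median difference was 0.07, against -0.04 over all genes tested, and 22 of the 42 differences were positive, against 46.8% of all genes. Arrays of the groups did not overlap for 4 genes that were higher and 4 that were lower, against 7.99% and 9.50% of all genes. Mki67 had a difference of 1.69 ± 0.58 (SE, 2 arrays against 3, adjusted p = 0.616) and Top2a of 1.52 ± 0.71 (adjusted p = 0.85). For both, day 28 replicate 2 was positive (0.58 and 0.66) and day 28 replicate 1 negative (-0.99 and -1.49). Other genes did not repeat that order: Smc4, Cenpa, Cdc20 and Kif23 were lower on replicate 2 (-2.10, -1.43, -1.41 and -1.60) than on replicate 1 (0.44, -0.51, 0.13 and -0.36). In all, replicate 1 was above replicate 2 for 24 of the 42 genes. Cenpa had -0.91 ± 0.35 (adjusted p = 0.704) and Kif23 -1.30 ± 0.47 (adjusted p = 0.641). The other tested Kif23 probe set was opposite in sign, with 0.39 ± 0.34 (adjusted p = 0.998). Further probe sets also had an unadjusted p under 0.05 and did not overlap the naive arrays. For Smc4 these had 2.05 ± 0.70 (adjusted p = 0.607) and -0.92 ± 0.37 (adjusted p = 0.736), opposite in sign. For Cdc20 it was -1.48 ± 0.60 (adjusted p = 0.747). Inside the high spike-in arrays alone, day 28 minus naive replicates 2 and 3 had a median of 0.06, with 23 of 42 positive.

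**Figure D4:**
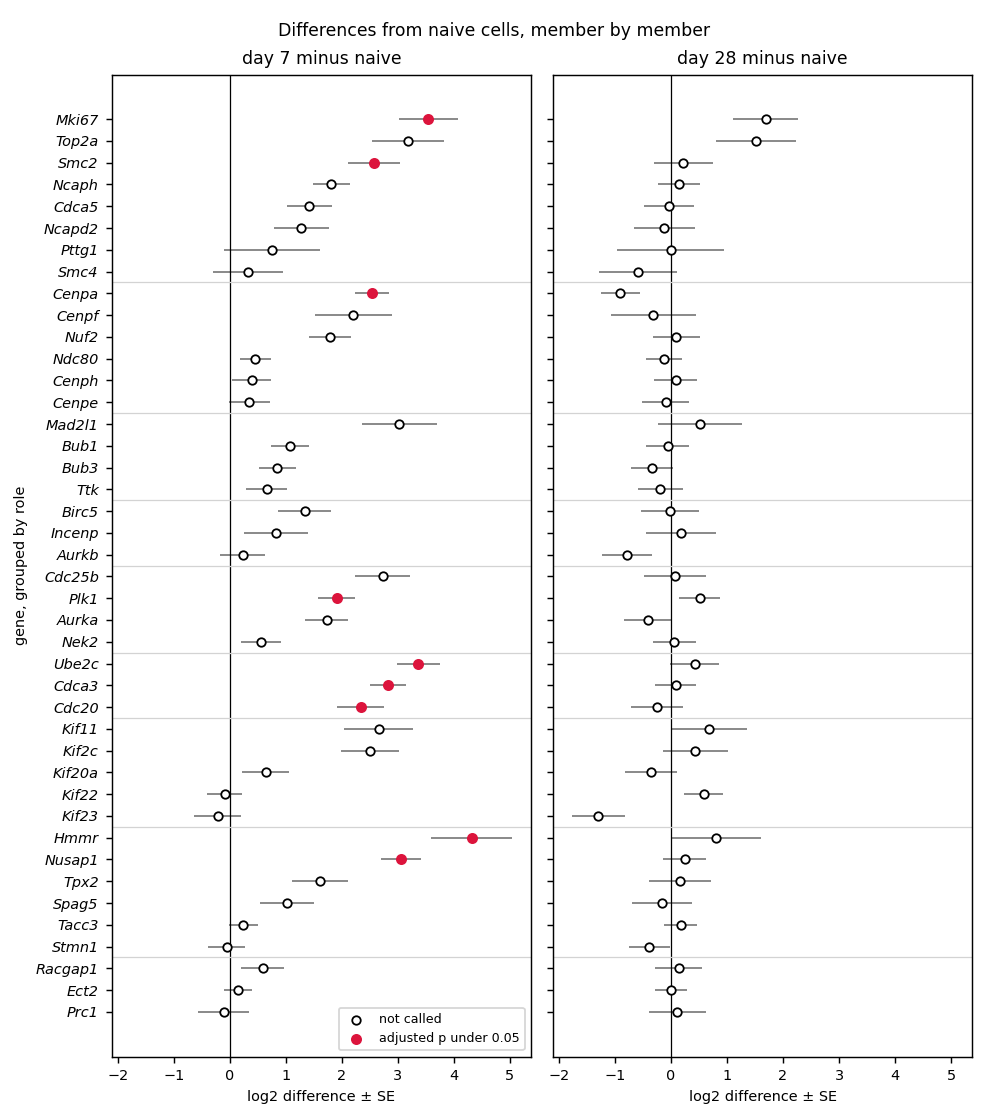
Log2 difference from naive ± SE (x axis) for each tested gene (y axis, grouped by role), at day 7 (left) and day 28 (right); filled points passed an adjusted p under 0.05 in limma. Both panels are read against the same 3 naive arrays: at day 7 differences run from -0.21 to 4.32 and at day 28 from -1.30 to 1.69, where no point is filled.

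The third comparison, day 28 against day 7, asks which of these genes differed between the early and the late stage. It shares the day 7 arrays with the first comparison and so is not independent of it. Of the 42 genes 5 fell and none rose, against 0.716% and 0.486% of all genes. Cenpa fell 10.9-fold (log2 difference -3.45 ± 0.35, SE, 2 arrays against 3, adjusted p = 0.00725), Ube2c 7.72-fold (-2.95 ± 0.44, adjusted p = 0.0271) and Nusap1 7.07-fold (-2.82 ± 0.39, adjusted p = 0.0203). The regulators Cdca3 and Cdc20 fell by 2.74 ± 0.36 and 2.60 ± 0.47 on the log2 scale (adjusted p = 0.0178 and 0.0481). Since the Cdca3 probe set met the filter through day 7 arrays only, its fall from day 7 was built in. The Nusap1 probe set used reached a ratio of 1 on only 1 array outside day 7. It too was tested only through a day 7 array. Over the 42 genes the median was -1.38, against -0.12 over all genes, and 2 of the 42 differences were positive, against 43.2% of all genes. In 31 every day 28 array lay below every day 7 array, against 27.8% of all genes. At an unadjusted p under 0.05, 25 were lower and 0 higher, against 11.3% and 3.39% of all genes. By the probe sets used, Kif22 was the 1 gene with its day 28 arrays above all day 7 arrays, against 14.8% of all genes. It had 0.67 ± 0.35 (adjusted p = 0.394). The other tested Kif22 probe sets went the opposite way, with -0.98 and -1.71 and their day 28 arrays below all day 7 arrays. Mki67 (-1.86 ± 0.58, adjusted p = 0.174) and Hmmr (-3.53 ± 0.81, adjusted p = 0.0904) did not pass.

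At day 28 against day 7, 8 of 10 B cell markers (median 4.54) and 2 of 2 CD8 chain genes (median 3.54) rose, and their part in the lower mitotic values was not tested. Over the 65 tested probe sets of the mitosis genes 10 fell and 0 rose (0.882% and 0.422% of all probe sets), 3 of the 10 having met the filter through day 7 arrays only, and 9 of the 42 genes had a probe set that fell and 0 one that rose (1.28% and 0.537% of all genes). By role, the median of day 28 minus day 7 was -2.74 for the genes grouped as regulators of the anaphase-promoting complex (3 of 3 fell). It was -1.77 for kinases and phosphatases (0 of 4), -1.56 for chromosome structure (0 of 8) and -1.32 for spindle proteins (1 of 6). The checkpoint had -1.17 (0 of 4), the kinetochore -1.14 (1 of 6, Cenpa) and kinesins -1.10 (0 of 5). The passenger complex had -1.02 (0 of 3) and cytokinesis -0.15 (0 of 3). These counts hold for the probe sets used. By another probe set the cytokinesis genes Prc1 (-3.01, adjusted p = 0.0395 in limma) and Racgap1 (-1.93, adjusted p = 0.0439) fell. So did the chromosome structure genes Cdca5 (-3.36, adjusted p = 0.0286) and Ncaph (-3.75, adjusted p = 0.0171). The Racgap1 and Ncaph probe sets met the filter through day 7 arrays only. Of the 58 other mitosis genes 0 passed in limma, and their median was -0.50. At an unadjusted p under 0.05, 0 of these were higher and 12 lower, against 3.39% and 11.3% of all genes. Cenpa was called with 7 of the 8 arrays left out in turn, the exception being day 7 replicate 3 (-2.99 to -3.91 over the alternatives tried). Cdca3 was called in 4 of these 8 fits, Nusap1 in 3, Cdc20 in 2 and Ube2c in 1. Dropping naive replicates 1, 2 and 3 in turn gave 10, 2 and 3 called genes, where 4.29%, 0.256% and 0.511% of all genes were called lower. Dropping day 7 replicates 1, 2 and 3 gave 4, 1 and 0 (0.383%, 0.268% and 0.0895% of all genes), and dropping day 28 replicates 1 and 2 gave 2 and 1 (0.0639% and 0.115%). Without day 7 replicate 3, 21 genes were lower at an unadjusted p under 0.05, against 8.03% of all genes. No array level of spike-in was shared by day 7 and day 28, so for this comparison the spike-in split and the group cannot be told apart except through the naive arrays.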

How the data were processed

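The deposited table holds a linear ratio for each probe set and array. Per the submitters' processing notes the authors used GCRMA (version not stated). No source gives the scaling; it was inferred from the deposited ratios, since 47.9% of probe sets had a median across arrays within 0.0015 of 1. Members and gene lists were chosen with earlier results of these data known.

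Ratios were taken to log2. Of 22626 probe sets without controls, the 13042 that reached a ratio of 1 in 2 or more arrays were fitted in limma 3.58.1 (R 4.3.3), with 1 mean per group over the 8 arrays and empirical Bayes moderation. The two-sided p-values were adjusted by Benjamini-Hochberg across the tested probe sets, and 0.05 was the threshold. A gene was represented by 1 tested probe set of a single symbol, chosen by suffix (plain, _a, _s, _x) and then number. Genes given with values were those called, the extremes of each role, Mki67, Top2a and those whose probe sets disagreed; others are named in passing. The fit was tested on simulated data. Marker lists covered T, CD8 T, B, germinal centre B and plasma, monocyte and erythroid cells; both CD8 chain genes had a median difference of 3.67 at day 28 against naive, where 1 rose. The number of arrays limits the precision.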

Additional observations from a re-analysis of the deposited data

How the results depend on the processing

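At day 7 against naive, 9 genes were called. The count was 3 with no filter (0.323% of all genes called higher), 4 with the stricter filter (0.599%) and 3 with trended and robust variance (0.383%). It was 24 with array weights (15.4%, from weights that had not fully converged). With the spike-in term or at an adjusted p under 0.01 it was 0 (0.0895% and 0.192%). With the replicate number as a block it was 0 (0.115% of all genes called higher). In that fit 25 genes were higher at an unadjusted p under 0.05, against 12.7% of all genes. Deviations from the group means correlated at -0.365 to 0.171 for 7 same-numbered pairs and at -0.188 to 0.353 for 14 other pairs. Because deviations within a group sum to 0, these correlations constrain each other. They cannot decide whether the numbers pair the arrays. Leaving out each array gave 0 to 19. The median, 1.31, was 0.70 with no filter and 1.96 with array weights. It was 1.79 with the probe set of highest median ratio, ties going to the largest SD. At day 28 against day 7, 5 were called. The count was 3 with no filter (0.282% of all genes called lower) and 3 with the stricter filter (0.239%). It was 1 with trended and robust variance (0.141%) and 1 at an adjusted p under 0.01 (0.0767%). Array weights gave 20 (8.27%), and probe sets averaged per gene gave 8 (1.19%). The spike-in term and the replicate block each gave 0 (0% and 0.0383%). Those 2 fits had 7 and 20 lower genes at the unadjusted p threshold of 0.05, against 3.62% and 12.3% of all genes. Leaving out each array gave 0 to 10. The median, -1.38, was -0.96 with no filter and -1.91 with array weights. At day 28 against naive, 0 were called under each alternative. Stmn1 changed sign as a mean of its probe sets (1.93, day 7 against naive). Prc1 did so with the probe set chosen by median ratio and then SD (2.89, and -3.01 at day 28 against day 7). No called gene kept its call under all alternatives. The cause was not tested.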
